A study of Mus musculus with 8 samples.

Results

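The genes described here encode the proteasome and its inducible form, the immunoproteasome, in mouse heart. Members were the protein-coding genes whose mouse symbol begins with Psma, Psmb, Psmc, Psmd, Psme, Psmf or Psmg followed by a digit, after Ensembl identifiers had been matched to GENCODE vM21 symbols. The rule found 50 members among 21394 protein-coding genes and 30153 identifiers in all, and it used no measured value. Of the 50, 48 reached at least 1 TPM (a level scaled to transcript length and to the library) in at least 4 libraries and entered the test, while Psma8 and Psmb11 did not. One tested member, Psmc3ip, fits the pattern by name only, since it encodes a factor of meiotic recombination. Polyadenylated RNA of heart tissue was sequenced in 8 libraries from C57/BL6 mice that, by the series title, overexpress a human angiotensin type 1 receptor, a blood pressure receptor, here of haplotype II. The 4 control libraries carry the label Haplotype-II aged, the 4 others come from aged Haplotype-II mice given a western diet (WD), and so the transgene and the age class are shared by both groups. The age in months, the sex, the transgene promoter, the control feed and whether each library is a separate animal were not stated in the labels, so p-values measure only the spread between these libraries.

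The proteasome degrades proteins that carry ubiquitin chains. Its 20S core is a barrel of stacked rings: the outer rings of alpha subunits gate the entry, and the inner rings of beta subunits hold the proteolytic sites of Psmb5, Psmb6 and Psmb7. The 19S cap binds ubiquitin, removes it and threads the substrate inward with a ring of ATPases. Under interferon, cells make Psmb8, Psmb9 and Psmb10, which take the places of Psmb5, Psmb6 and Psmb7 in newly built cores, and the resulting immunoproteasome favours peptides that bind class I major histocompatibility molecules. In heart muscle the proteasome is a main route for the turnover of contractile and damaged proteins.

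Start-site sequences were taken from RefSeq on build GRCm38.p6, in windows of 300 bases that run from 250 bases before a start site to 50 bases after it. The table matched 42 of the 50 members, with 45 windows; Psma8, Psmb1, Psmb2, Psmb7, Psmc3, Psmd3, Psmd7 and Psmg2 had no match. Those shown belong to the constitutive subunits with an antioxidant response core and to the members with an interferon-type motif whose values are given in full further on. Capitals mark the motif match, and each sequence reads 5′ to 3′ on the strand of its gene.
Psmb5, chr14:54618023-54618122, minus strand: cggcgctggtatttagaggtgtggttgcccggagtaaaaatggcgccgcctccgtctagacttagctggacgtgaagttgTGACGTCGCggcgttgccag
Psmb6, chr11:70525257-70525356, plus strand: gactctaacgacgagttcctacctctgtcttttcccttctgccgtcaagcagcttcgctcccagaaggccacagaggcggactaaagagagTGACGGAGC
Psmb8, chr17:34198088-34198116, plus strand: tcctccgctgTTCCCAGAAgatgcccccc
Psme1, chr14:55578494-55578522, plus strand: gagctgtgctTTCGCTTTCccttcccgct
Psmg4, chr13:34162969-34162997, plus strand: gcgcgcatctGAAAGTGAAagagcgttcc

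The stretches of Psmb5 and Psmb6 lie outside all GENCODE exons. Their capitals match TGACNNNGC, the core of the element read by Nrf1 and Nrf2, of which Nrf1 raises proteasome genes when proteolysis is short. That motif, searched on both strands with overlaps allowed, was found in 6 of 45 member windows (13.3%) and in 12.4% of the 32851 windows of all genes. Besides Psmb5 and Psmb6, the windows of Psmc6, Psmd9, Psmd12 and Psme4 held it. The capitals of Psmb8 match TTCNNNGAA, the gamma-activated site, in a stretch that GENCODE annotates as 5′ untranslated exon of a longer Psmb8 transcript. Psmd2 and Psmg1 held it too, which makes 3 of 45 windows (6.67%) beside 8.30% of all windows. GAAANNGAA, a core of the interferon-stimulated and IRF elements, stood in 7 of 45 windows (15.6%) beside 8.56% of all windows. The 7 members were Psmb3, Psmb4, Psmc2, Psmd4, Psmd9, Psme1 (shown above, match on the opposite strand) and Psmg4 (shown above), both of the last within the first exon. CCAAT stood in 15 of 45 member windows (33.3%) and in 37.4% of all windows. The windows of Psmb9 and Psmb10 held none of the other 3 motifs. Psmb9 and Tap1, a peptide transporter gene on the other strand, start 226 bases apart on chromosome 17, at 34187330 and 34187556. These matches describe letters, not bound sites.

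The libraries differed in ways beyond diet. Transcripts of the Y-linked gene Eif2s3y measured 21.1 to 29.0 TPM in controls, 22.3 TPM in western diet replicate 4 and 0.0231 TPM or less in the other 3 western diet libraries. Myl7, an atrial myosin light chain, exceeded 100 TPM in control replicates 1 and 3 and western diet replicate 2 and stayed between 1.10 and 2.87 TPM elsewhere. Kap, a kidney transcript, reached 7.15 to 72.1 TPM with western diet and at most 0.685 TPM in controls (limma adjusted p = 0.0169). Miox and Slc34a1, also kidney transcripts and too low to be tested, were at 0 in every control. With western diet they measured 0.601 to 2.73 TPM and 0.259 to 2.86 TPM. Umod, another kidney transcript, was at 0 in every control and in western diet replicates 1 and 3. Cardiomyocyte markers were abundant, with 5 genes summing to 39406 to 43008 TPM in controls and 31892 to 41103 TPM with western diet. Summed TPM ran from 941318 to 953448 and 10620 to 11175 genes reached 1 TPM, while read depth is unknown. In heart tissue, a change in the number of cells of a type and a change in RNA per cell cannot be told apart.

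No proteasome gene passed the test between diets: 0 of 48 tested members had a limma adjusted p under 0.05, beside 33 of 10969 genes (0.301%). The smallest adjusted p of a member was 0.177, for Psmb8. At an unadjusted p under 0.05, 4 members were higher (Psmb8, Psmb9, Psmg4 and Psmd11), beside 9.2% of all genes, and 2 were lower (Psme1 and Psme4), beside 2.51% of all genes. All 4 western diet libraries lay above all 4 controls for 2 members (Psmb8 and Psmg4; 4.85% of all genes) and below them for 2 others (Psmb7 and Psme4; 1.75% of all genes). The mean was higher with western diet in 22 members and lower in 26, whereas 66.4% of all genes had a higher mean. That split depended on scale: with median-of-ratios scaling it was 10 against 38 and the share of all genes with a higher mean was 48.8%, and with quantile normalization 10 against 38 and 47.1%. It also turned on single libraries, as did the share of all genes with a higher mean. Without western diet replicate 4 it was 35 against 13, beside 75.7% of all genes. Without replicate 3 of that group it was 27 against 21, beside 67.4%, and without replicate 1 it was 12 against 36, beside 61.3%. With library weights it was 31 against 17, beside 72.9% of all genes. The median log2 fold change was -0.01 over the members, beside 0.06 over all genes.

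**Figure D1:**
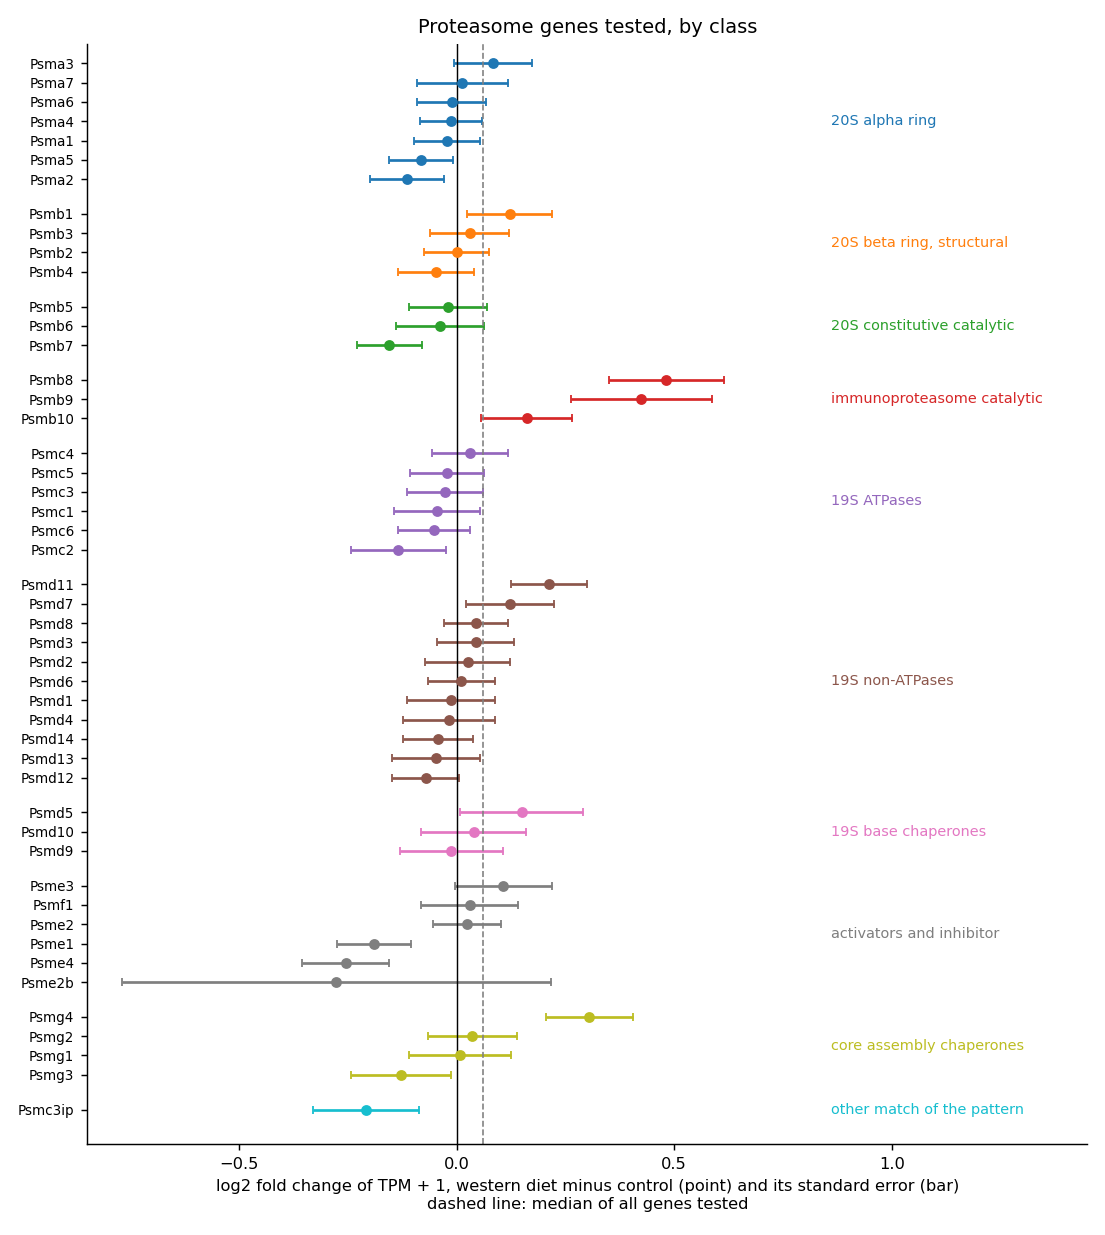
Log2 fold change of TPM + 1 (western diet minus control, horizontal axis) of the 48 tested members, grouped and coloured by class, as points with standard error bars (n = 4 libraries per group) and with the median of all genes as a dashed line at 0.06. Psmb8, Psmb9 and Psmb10 lie at 0.48, 0.42 and 0.16, to the right of nearly all other members, and no member passed the adjusted threshold.

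The 3 inducible catalytic subunits had the highest class median, 0.42 on the log2 scale, beside -0.01 over the other 45 tested members. Psmb8 (ENSMUSG00000024338, chr17:34197721-34201454, plus strand) encodes the chymotrypsin-like subunit of the immunoproteasome. Its levels were 6.58, 6.05, 8.11 and 6.98 TPM in control replicates 1 to 4 and 10.6, 8.12, 9.45 and 12.3 TPM in western diet replicates 1 to 4. The groups did not overlap, though the lowest western diet library and the highest control were almost level. The means were 6.93 ± 0.873 TPM and 10.1 ± 1.79 TPM (SD, n = 4 each), a ratio of 1.46, and the log2 fold change was 0.48 (SE 0.13, limma adjusted p = 0.177).

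Psmb9 (ENSMUSG00000096727, chr17:34181987-34187764, minus strand) replaces Psmb6, the caspase-like site, with a site of other specificity. It measured 2.68, 4.56, 4.28 and 4.47 TPM in the controls and 5.35, 4.34, 6.19 and 6.86 TPM with western diet. The groups overlapped, because western diet replicate 2 lay among the controls, and control replicate 1 stood below all other libraries. Its means of 4.00 ± 0.885 TPM and 5.69 ± 1.09 TPM (SD, n = 4 each) differed by 0.42 in log2 fold change (SE 0.16, limma adjusted p = 0.347), and by 0.28 without control replicate 1.

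Psmb10 (ENSMUSG00000031897, chr8:105935735-105938444, minus strand), the inducible trypsin-like subunit, was the most abundant of the 3. It measured 23.2, 24.5, 23.9 and 21.8 TPM in the controls and 27.1, 27.9, 21.3 and 29.2 TPM with western diet. Western diet replicate 3 was the lowest of all 8 libraries, and the other 3 western diet libraries were the 3 highest. The means were 23.4 ± 1.16 TPM and 26.4 ± 3.47 TPM (SD, n = 4 each) with a log2 fold change of 0.16 (SE 0.10, limma adjusted p = 0.597). Western diet replicate 4 had the highest level of all 3 inducible subunits. Without it their log2 fold changes were 0.39 for Psmb8, 0.34 for Psmb9 and 0.11 for Psmb10, none past the threshold. Since the other 3 western diet libraries lack Y-linked transcripts and all controls hold them, a model term for those transcripts compares western diet replicate 4 alone with the controls, at 0.76, 0.67 and 0.31, and so gives no estimate adjusted for them.

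**Figure D2:**
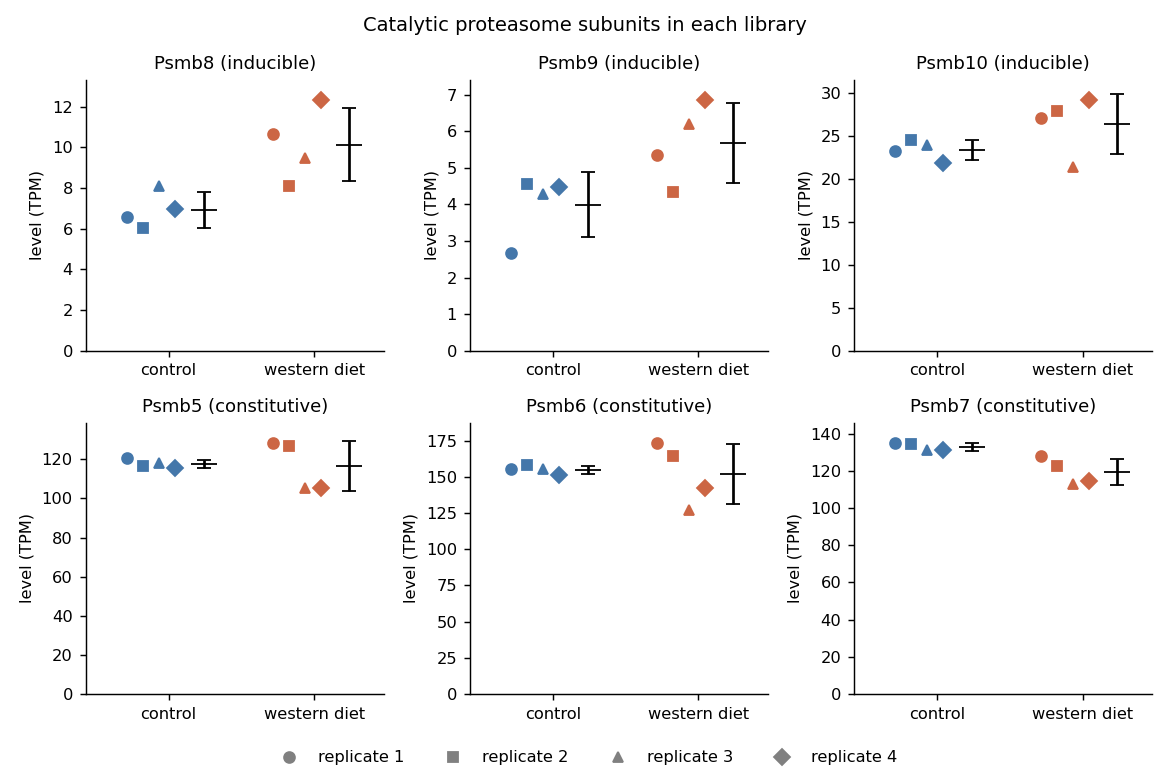
Level in TPM (vertical axis, from 0) of the 3 inducible subunits (top) and their 3 constitutive partners (bottom) in 4 control and 4 western diet libraries, with the mean and SD of each group in black. Symbols give replicate numbers and pair nothing across groups. Psmb8 lies between 6.05 and 8.11 TPM in controls and between 8.12 and 12.3 TPM with western diet, while Psmb7 lies between 131 and 135 TPM in controls and between 113 and 128 TPM with western diet.

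The constitutive partners had lower means with western diet in 3 of 3 cases, by small amounts. Psmb7 (ENSMUSG00000026750, chr2:38588036-38644087, minus strand), the trypsin-like subunit, measured 135, 134, 131 and 131 TPM in the controls and 128, 123, 113 and 114 TPM with western diet. All western diet libraries lay below all controls. The means of 133 ± 2.05 TPM and 119 ± 7.16 TPM (SD, n = 4 each) gave a log2 fold change of -0.16 (SE 0.075, limma adjusted p = 0.453). Psmb5, the chymotrypsin-like subunit, had means of 118 ± 2.20 TPM and 116.5 ± 12.9 TPM (SD, n = 4 each; log2 fold change -0.02, limma adjusted p = 0.958). Psmb6, the most abundant core subunit, had means of 155 ± 2.75 TPM and 152 ± 21.0 TPM (SD, n = 4 each; log2 fold change -0.04, limma adjusted p = 0.921). For Psmb5 and Psmb6, western diet replicates 1 and 2 were above all controls and replicates 3 and 4 below them, so that the western diet libraries enclosed the control range.

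The inducible share of each interchangeable pair, which cancels the scaling of a library, was higher on average with western diet for 3 of 3 pairs. Psmb8 made up 5.17%, 4.93%, 6.43% and 5.70% of the summed TPM of Psmb8 and Psmb5 in the controls and 7.65%, 6.01%, 8.22% and 10.5% with western diet. Only western diet replicate 2 fell within the control range. The mean shares were 5.56 ± 0.666% and 8.09 ± 1.86% (SD, n = 4 each), and the log2 ratio differed by 0.56 (two-sided exact permutation p = 0.0571, 0.0857 after Benjamini-Hochberg adjustment over the 3 pairs).

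Psmb10 made up 14.7%, 15.4%, 15.4% and 14.3% of its pair with Psmb7 in the controls and 17.5%, 18.6%, 15.9% and 20.3% with western diet. This was the only pair whose groups did not overlap. The mean shares were 14.9 ± 0.576% and 18.1 ± 1.86% (SD, n = 4 each), and the log2 ratio differed by 0.32 (exact permutation p = 0.0286, the smallest that 70 assignments allow, adjusted p = 0.0857). Psmb9 and Psmb6 gave shares of 1.70%, 2.81%, 2.69% and 2.87% in the controls and 2.99%, 2.57%, 4.64% and 4.59% with western diet. Here too western diet replicate 2 lay among the controls, and the log2 ratio differed by 0.56 (exact permutation p = 0.171, adjusted p = 0.171). Western diet replicate 2 was the library that made the pairs of Psmb8 and Psmb9 overlap, so leaving it out separates them by construction. The differences were then 0.70 for Psmb8, 0.72 for Psmb9 and 0.31 for Psmb10. Each adjusted p of the exact permutation was then 0.0286, the smallest possible with 35 assignments, and nothing is concluded from it. Over all 6 catalytic genes, the inducible share was 7.32% to 8.24% in controls and 8.88% to 11.8% with western diet, given as a description.

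**Figure D3:**
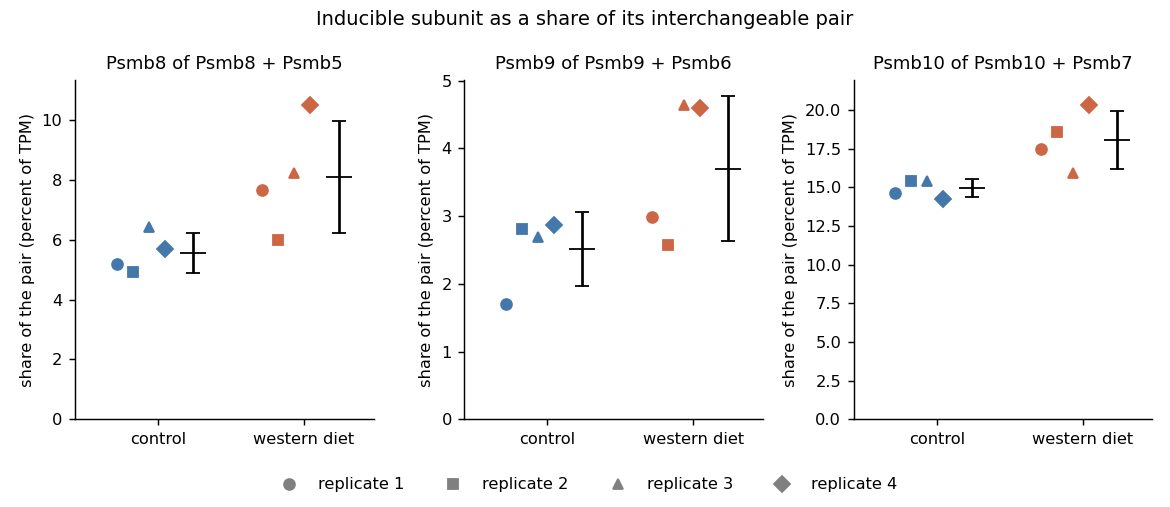
Inducible subunit as a percent of the summed TPM of its pair (vertical axis, from 0) in 4 control and 4 western diet libraries, with group mean and SD in black. The share of Psmb10 runs from 14.3% to 15.4% in controls and from 15.9% to 20.3% with western diet, and the other pairs overlap through western diet replicate 2.

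Among markers of white blood cells, which hold abundant immunoproteasome, 10 of 19 were high enough to be tested. All 10 had a higher mean with western diet (66.4% of all genes) and 0 passed the limma threshold, with a median log2 fold change of 0.12. Ptprc, the pan-leukocyte marker CD45, averaged 1.26 ± 0.350 TPM and 1.85 ± 0.511 TPM (SD, n = 4 each; limma adjusted p = 0.428). Itgam, an integrin of myeloid cells, averaged 0.961 ± 0.0554 TPM and 1.31 ± 0.165 TPM (SD, n = 4 each; limma adjusted p = 0.398). Ptprc and Itgam were named for the smallest p of the 10. Lyz2, the most abundant of the 19, averaged 106 ± 10.1 TPM and 110 ± 26.2 TPM (SD, n = 4 each). Cd74, the next, averaged 94.4 ± 13.3 TPM and 97.6 ± 24.9 TPM. Ccr2, too low to be tested, ran the other way at 1.05 ± 0.155 TPM and 0.694 ± 0.218 TPM. The summed level of the 19 was 228 to 297 TPM in controls and 210 to 354 TPM with western diet, and none of the 19 was at 0 in all libraries. Their part in the values of Psmb8, Psmb9 and Psmb10 was not tested.

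The remaining 20S core genes sat close to their control levels. Of the 7 alpha subunits, 2 had a higher mean with western diet and 5 a lower one, with a median log2 fold change of -0.01 and a range of -0.11 to 0.08. Psma6, the most abundant alpha subunit, averaged 101.8 ± 1.35 TPM in controls and 101.2 ± 8.17 TPM with western diet (SD, n = 4 each). Psma2, the alpha subunit with the smallest p, was also the least abundant of the 7 and averaged 15.2 ± 0.756 TPM and 13.98 ± 0.772 TPM (SD, n = 4 each; log2 fold change -0.11, limma adjusted p = 0.647). The 4 beta subunits without a catalytic site had a median log2 fold change of 0.01. Psmb4, the most abundant of them, averaged 127 ± 4.59 TPM and 123 ± 12.3 TPM, and Psmb1 averaged 45.4 ± 2.70 TPM and 49.7 ± 5.90 TPM (SD, n = 4 each; limma adjusted p = 0.679).

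Core genes known from single other tissues were at low levels. Psma8, an alpha subunit of male germ cells, ran from 0.0874 to 0.426 TPM in controls and from 0.293 to 0.689 TPM with western diet. Psmb11, the beta subunit of thymic cortical epithelium, stayed at 0.0764 TPM or less in all 8 libraries.

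Genes of the 19S cap likewise gave no call. Of the 6 ATPases, which unfold the substrate, 1 had a higher mean with western diet and 5 a lower one, with a median log2 fold change of -0.04. Psmc3, the most abundant ATPase, averaged 137.5 ± 3.30 TPM and 135 ± 13.5 TPM (SD, n = 4 each). Psmc2 averaged 46.4 ± 2.45 TPM and 42.5 ± 6.20 TPM (SD, n = 4 each; limma adjusted p = 0.681).

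The 11 other cap subunits had a median log2 fold change of 0.01, with 6 higher and 5 lower means. Psmd11 (ENSMUSG00000017428, chr11:80428615-80473248, plus strand), a scaffold subunit of the lid, measured 31.8, 31.4, 34.8 and 37.6 TPM in the controls and 40.1, 40.6, 40.5 and 36.2 TPM with western diet. Western diet replicates 1, 2 and 3 lay close together above all controls, and replicate 4 lay between control replicates 3 and 4. The log2 fold change was 0.21 (SE 0.088, limma adjusted p = 0.387). Psmd4, a receptor for ubiquitin chains, averaged 73.2 ± 1.61 TPM and 72.9 ± 11.2 TPM (SD, n = 4 each; log2 fold change -0.02). Psmd14, the enzyme that cuts ubiquitin off the substrate, averaged 30.8 ± 1.58 TPM and 29.9 ± 1.56 TPM (SD, n = 4 each), and Psmd2, the most abundant of the 11, averaged 76.3 ± 5.37 TPM and 77.8 ± 8.38 TPM. Both groups overlapped for all 11.

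Activators that open the core in place of the cap differed among themselves. Psme1 (ENSMUSG00000022216, chr14:55578123-55581529, plus strand), the alpha chain of the interferon-inducible activator PA28, measured 110.2, 123, 116 and 115 TPM in the controls and 112, 100.7, 103 and 90.9 TPM with western diet. The groups overlapped in western diet replicate 1, and the other 3 were below all controls. The log2 fold change was -0.19 (SE 0.085, limma adjusted p = 0.419), opposite in sign to the inducible subunits. Psme2, the beta chain of the same ring, averaged 65.95 ± 2.08 TPM and 67.1 ± 4.36 TPM (SD, n = 4 each; log2 fold change 0.02, limma adjusted p = 0.944).

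Psme4 (ENSMUSG00000040850, chr11:30771726-30880361, plus strand) encodes PA200, an activator that caps the core without ubiquitin or ATP. It measured 53.0, 48.4, 56.3 and 58.0 TPM in the controls and 38.0, 48.1, 47.1 and 47.1 TPM with western diet. All western diet libraries were below all controls, by a narrow margin between western diet replicate 2 and control replicate 2. The log2 fold change was -0.26 (SE 0.099, limma adjusted p = 0.352), and without western diet replicate 1 it was -0.18. Psme3, the nuclear activator PA28 gamma, averaged 28.3 ± 3.29 TPM and 30.5 ± 3.60 TPM, and Psmf1, the inhibitor PI31, averaged 8.67 ± 0.994 TPM and 8.87 ± 0.974 TPM (SD, n = 4 each). Psme2b was listed at 0 in control replicate 2 and western diet replicate 2.

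Of the 4 chaperones that assemble the core, 3 had a higher mean with western diet, with a class median of 0.02. Psmg4 (ENSMUSG00000071451, chr13:34162964-34178173, plus strand), partner of Psmg3 in building the alpha ring, measured 11.7, 11.5, 10.6 and 9.75 TPM in the controls and 13.6, 14.95, 11.9 and 14.2 TPM with western diet. The groups did not overlap. Its means of 10.9 ± 0.910 TPM and 13.7 ± 1.28 TPM (SD, n = 4 each) gave a log2 fold change of 0.30 (SE 0.10, limma adjusted p = 0.263). Psmg3 ran the other way at a log2 fold change of -0.13, and Psmg2 averaged 19.9 ± 2.06 TPM and 20.4 ± 1.84 TPM (SD, n = 4 each). Among the 3 chaperones of the cap's base, the median was 0.04, and Psmd5 averaged 6.96 ± 1.51 TPM and 7.74 ± 0.919 TPM (SD, n = 4 each; limma adjusted p = 0.733). Psmc3ip, no proteasome gene, averaged 2.50 ± 0.298 TPM and 2.04 ± 0.402 TPM (SD, n = 4 each; limma adjusted p = 0.550).

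On the deposited scale, core and cap genes had a wider spread between western diet libraries than between controls, given here as a description with no test. The 14 core genes other than the inducible subunits summed to 1285, 1284, 1281 and 1261 TPM in the controls, a coefficient of variation of 0.886%, and to 1380, 1331, 1176 and 1164 TPM with western diet, a coefficient of variation of 8.64%. The 17 cap genes summed to 975, 953, 1008 and 1019.8 TPM and to 1066, 1048, 966 and 882 TPM. In both sums western diet replicate 1 was highest and replicate 4 lowest of that group. The ratio of core to cap ran from 1.24 to 1.35 in controls and from 1.22 to 1.32 with western diet.

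The order of the western diet libraries mirrored that of the mitochondrially encoded transcripts, which took 34.6% to 36.5% of TPM in controls and 27.3%, 34.6%, 38.5% and 39.3% in western diet replicates 1 to 4. Per 1000000 TPM outside those transcripts, the core sums were 2073, 2073, 2065 and 2093 in controls and 2015, 2159, 2012 and 2010.1 with western diet, coefficients of variation of 0.574% and 3.57%. The cap sums had coefficients of variation of 3.07% and 8.52% as deposited, and of 4.15% and 5.11% on the second scale. On that scale the inducible subunits summed to 52.3 to 58.5 in controls and to 62.9, 65.5, 63.3 and 83.6 with western diet. The SD was larger in the western diet group for 43 of 48 members (89.6%) on the deposited scale, beside 61.9% of all genes, and for 36 of 48 (75%) beside 58.0% on the other. Counted on the deposited scale only, western diet replicate 4 was the lowest of 8 libraries for 27 of 48 members (56.3%), beside 25.7% of all genes.

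**Figure D4:**
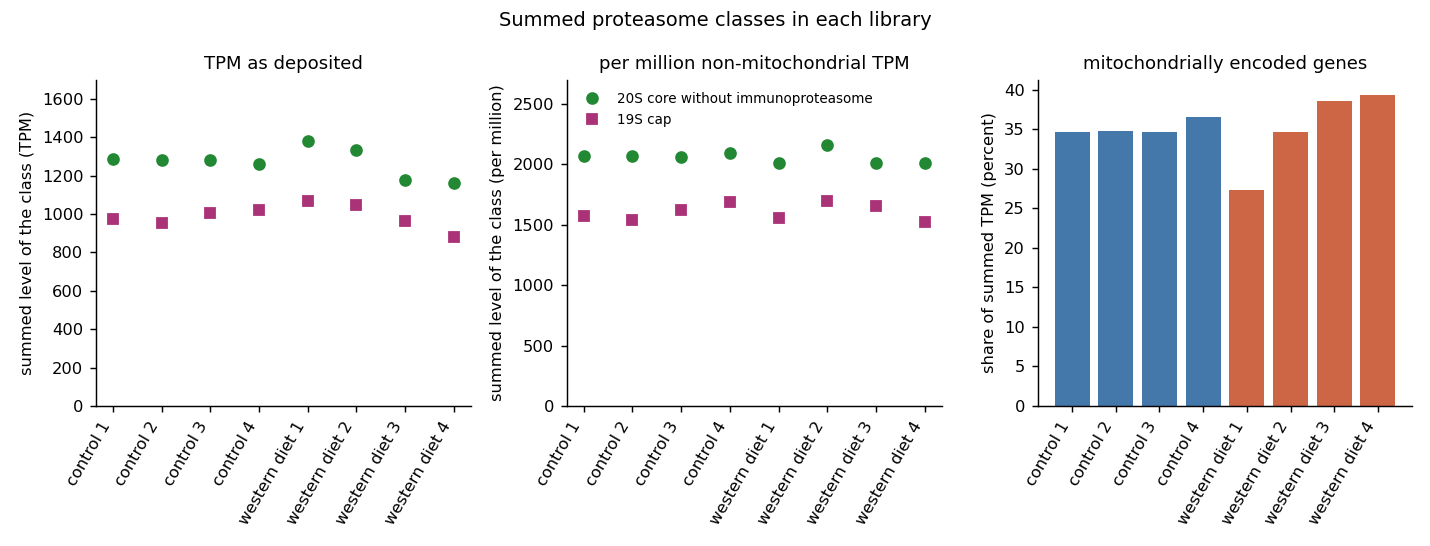
Summed level of 14 core genes (circles) and 17 cap genes (squares) in each library as deposited TPM (left) and per 1000000 non-mitochondrial TPM (middle), and percent of TPM in mitochondrially encoded genes (right; bars from 0, blue control, orange western diet). Core sums span 1261 to 1285 TPM in controls and 1164 to 1380 TPM with western diet.

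Near-identical copies limit some levels. Of the members, 15 have a copy of at least 90% identity over at least 50% of the shorter transcript, in 23 pairs, and 7 of those copies were at 0 in all libraries. Psma3 shares 685 identical bases with the processed pseudogene Gm13835, listed at a mean of 39.8 TPM beside 61.3 TPM for Psma3, so the division of reads between them is uncertain. Their sum ran from 96.9 to 105 TPM in controls and from 87.7 to 110.3 TPM with western diet. Psme2 and Psme2b are 99.4% identical over 794 bases, at means of 66.5 and 1.82 TPM.

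Related genes outside the rule did not pass in the fit of all 8 libraries either, and the lists were read only as counts. Of 24 proteasome cofactors, 17 had a higher mean with western diet, 0 passed the limma threshold and the median log2 fold change was 0.11, beside 66.4% and 0.06 over all genes. Hspb1, a small heat shock protein, averaged 146 ± 9.35 TPM and 198 ± 32.8 TPM (SD, n = 4 each; limma adjusted p = 0.190, and 0.0240 without western diet replicate 3). For Hspb1 that replicate lay within the control range, at 150 TPM beside 138 to 160 TPM. Leaving it out separates the groups by construction, and nothing is concluded from that value. Pomp, the maturation factor of new cores, averaged 41.5 ± 1.74 TPM and 37.0 ± 3.20 TPM (SD, n = 4 each; limma adjusted p = 0.498). Of 15 regulators of proteasome genes, 12 had a higher mean, 0 passed and the median was 0.27. Nfe2l1, which encodes Nrf1, averaged 149 ± 10.9 TPM and 184 ± 22.2 TPM (limma adjusted p = 0.290), while Zfp143, a zinc finger activator, averaged 2.17 ± 0.461 TPM and 1.40 ± 0.153 TPM (SD, n = 4 each; limma adjusted p = 0.230). Of 17 ubiquitin genes, 9 had a higher mean and 0 passed, with a median of 0.03. The conjugating enzyme Ube2l3 averaged 32.9 ± 1.27 TPM and 37.7 ± 2.78 TPM (limma adjusted p = 0.407), and the activating enzyme Uba6 averaged 1.18 ± 0.324 TPM and 1.56 ± 0.172 TPM (SD, n = 4 each).

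Genes that use or induce the immunoproteasome did not pass in that fit either. Of 12 genes of class I peptide loading tested, 10 had a higher mean with western diet (66.4% of all genes) and 0 passed, with a median log2 fold change of 0.15. In 4 of the 12, all western diet libraries lay above all controls, beside 4.85% of all genes. The list was chosen with earlier results of these data known, so this comparison is no test. B2m, the light chain of class I molecules, measured 206, 187, 249.8 and 242 TPM in controls and 338, 299, 316 and 383 TPM with western diet. The groups were apart, with a log2 fold change of 0.60 (limma adjusted p = 0.0637, and 0.0353 with library weights). Under other alternatives the limma adjusted p of B2m was 0.204 with no filter, 0.113 with quantile normalization and 0.109 with median-of-ratios scaling. The heavy chain gene H2-D1 had a log2 fold change of 0.48 (limma adjusted p = 0.103). Tap1, neighbour of Psmb9, measured 3.39, 2.95, 3.50 and 3.61 TPM in controls and 3.84, 4.33, 5.997 and 5.81 TPM with western diet, and again the groups were apart, with a log2 fold change of 0.44 (limma adjusted p = 0.223). Tap2, on the far side of Psmb8, had 0.16 (limma adjusted p = 0.646).

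Of 14 interferon drivers tested, 12 had a higher mean (66.4% of all genes) and 0 passed, with a median of 0.17. In 3 of the 14, all western diet libraries lay above all controls, beside 4.85% of all genes, and this list too was chosen with earlier results known. Irf9, the DNA-binding part of the type I interferon complex, averaged 5.04 ± 0.388 TPM and 8.49 ± 1.30 TPM (SD, n = 4 each; log2 fold change 0.64, limma adjusted p = 0.0514). It passed the threshold under some alternatives and not under others. Limma adjusted p was 0.0473 at a pseudocount of 0.1, 0.0385 with robust empirical Bayes and 0.0251 with library weights. It was 0.0458 without western diet replicate 2 and 0.0466 without western diet replicate 4. Limma adjusted p was 0.155 with no filter, 0.108 with quantile normalization and 0.0997 with median-of-ratios scaling. Without mitochondrial genes it was 0.0773. Irf7, which amplifies interferon, measured 5.32, 4.87, 4.84 and 3.65 TPM in controls and 14.7, 10.5, 11.7 and 61.0 TPM with western diet (limma adjusted p = 0.126, and 0.00401 without western diet replicate 4). Its top library, western diet replicate 4, was also the top library for Psmb8, Psmb9 and Psmb10. The same library held the most of the kidney transcript Kap, at 72.1 TPM beside 7.15 to 13.4 TPM in the rest of its group. Whether these are linked was not tested. Irf1, a factor that switches on Psmb9 under interferon gamma, had a log2 fold change of 0.04 (limma adjusted p = 0.899).

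Tested genes were ranked by likeness to Psmb8 over the 8 libraries, leaving out unnamed identifiers and symbols of the Gm-number or Rik kind. The top 5 were Xaf1, Ifi27l2a, Cfb, Ifitm3 and Shisa5, with Pearson r between 0.968 and 0.992. These r values include the difference between groups and are a description. Xaf1, the closest, measured 6.77, 6.54, 9.55 and 7.61 TPM in controls and 15.5, 10.7, 13.5 and 22.8 TPM with western diet. Its order of libraries within the western diet group was the same as that of Psmb8, with replicate 4 highest and replicate 2 lowest. Xaf1 was picked by its r with Psmb8 in these libraries, so the shared order is no separate evidence. Cfb, which encodes complement factor B, had a log2 fold change of 0.83 (limma adjusted p = 0.0630). Ifitm3, an interferon-induced membrane protein, had 0.82 (limma adjusted p = 0.105). None of the top 5 had a limma adjusted p under 0.05.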

How the data were processed

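Heart RNA libraries were made from total RNA with a stranded, polyadenylated-RNA protocol, per the labels' protocols. The authors deposited one table of TPM values per Ensembl gene; kallisto, DESeq2 and build GRCm38 are named, without versions or roles, in the submitters' processing notes, and how transcripts were summed to genes, and on which annotation, was not stated. TPM keeps no read depth, so no count test was used and no counting interval is given. Of 30153 identifiers, 29811 were named with GENCODE vM21 and 342 were not. Members and lists were chosen with earlier results of these data known.

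The diets were compared by limma (version 3.58.1, R 4.3.3) on log2(TPM + 1), two-sided, using empirical Bayes with an intensity trend. Benjamini-Hochberg adjustment ran over the 10969 genes that reached 1 TPM in 4 libraries or more. The fit was tested on simulated data with independent noise for each gene and added changes larger than those of any member. Shifts shared by the genes of a library, and changes as small as those of the members, were not simulated. Fold changes of TPM + 1 understate low genes. Pair ratios were compared by exact permutation of the 8 libraries (70 assignments). Copies were found with BLAST 2.17.0, and figures were drawn with matplotlib 3.10.9. Named genes were a fixed set of catalytic, activator and tissue-restricted subunits, the smallest p and the highest mean in each class, and the 2 smallest p of each related list; Irf1, Tap1, Tap2, Psmg3, Psma3, Psme2b, the marker genes of the libraries and the members with a motif were named after values were seen. Alternatives were pseudocounts, filters, scalings, variance priors, library weights, a Y-linked term and left-out libraries.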

Additional observations from a re-analysis of the deposited data

Results flagged for a closer look

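Some values stood far from the other 3 libraries of their group, with a gap to the nearest library above the 95% limit of Dixon's ratio of gap to range. Of the 60 groups checked, chance flags about 5%. Control replicate 1 was low for Psmb9, at 2.682 TPM beside 4.28 to 4.56 TPM in the other controls, and also for the share of Psmb9 in its pair with Psmb6, at 1.695% beside 2.685% to 2.871%. Western diet replicate 4 was low for Psmd11, at 36.18 TPM beside 40.08 to 40.59 TPM. Western diet replicate 1 was low for Psme4, at 38 TPM beside 47.05 to 48.11 TPM. Control replicate 4 was high for Psme2, at 69.04 TPM beside 64.54 to 65.17 TPM.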

How the results depend on the processing

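No member had a limma adjusted p under 0.05 under any of the alternatives run, and the smallest was 0.105, with library weights. Between 2 and 9 members had an unadjusted p under 0.05. Psmb8, Psmb9, Psmb10, Psmg4, Psmd11, Psmb7, Psme1 and Psme4 kept their sign under each alternative in which they were tested, as did 13 of the 25 tested members named by the rule; the others, with a size of 0.12 or less, changed sign 35 times. With a Y-linked term, which leaves western diet replicate 4 alone against the controls and so checks nothing about the diet group, the median log2 fold change was 0.67 for the inducible subunits and -0.15 for the other members. Of the list genes named, Irf9, B2m, Irf7 and Hspb1 passed under some alternatives and not under others. Over all genes, 33 passed; the number was 5 with no filter, 15 with a mean of at least 5 TPM, 61 with quantile normalization, 108 with library weights, 54 with the Y-linked term, 6 without the 3 libraries with atrial transcripts, 95 at an adjusted p under 0.1, and 9 to 90 when 1 library was left out (90 without western diet replicate 4). Leaving out 1 library in turn gave log2 ratio differences of 0.4125 to 0.7048 for Psmb8 over Psmb5, 0.3744 to 0.7224 for Psmb9 over Psmb6 and 0.2515 to 0.3951 for Psmb10 over Psmb7. Only without western diet replicate 2 did the 3 pairs pass, and that library was the one overlapping the controls for Psmb8 and Psmb9. The causes were not tested. No paired analysis was possible because the labels link no library across the groups. Replicate numbers were given here in the order of the series, since the labels hold none. Read depth is unknown, so no limit set by depth can be given.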
